A study of Canis lupus familiaris with 6 samples.

Results

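Integrins and the proteins that anchor them to the actin cytoskeleton were compared across 6 primary lines of osteosarcoma, the bone cancer, established from dogs. The set holds 37 genes taken by name, with earlier results of these data known: 12 integrin alpha chains, 8 integrin beta chains and 17 cytoplasmic adaptors. All 37 were found among the 15115 genes that have at least 1 probe set with a unique gene symbol, and each was represented by its brightest probe set over the 6 arrays. By their labels UWKOS1, UWKOS3 and UWKOS7 are tumorigenic (n = 3), which means that mice given the cells developed tumours, and UWKOS2, UWKOS6 and UWKOS8 are non-tumorigenic (n = 3). The strain of the mice is not given in the sources used here. No line carries a treatment or a stated genetic change. The lines share medium with 10% calf serum, harvest at 70 to 80% confluency and total RNA taken from the cultured cells. Each line is 1 culture on 1 Affymetrix array and there is no normal bone control, so p-values measure the spread between these lines. Values are the authors' log2 probe set values, and differences are tumorigenic minus non-tumorigenic on that scale unless stated otherwise.

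Integrins are transmembrane receptors made of an alpha and a beta chain, and the pairing sets which matrix protein is bound. ITGA5 with ITGB1 binds fibronectin, ITGAV with several beta chains binds vitronectin and other RGD-containing proteins, ITGA1, ITGA2, ITGA10 and ITGA11 with ITGB1 bind collagens, and ITGA3, ITGA6 and ITGA7 with ITGB1, or ITGA6 with ITGB4, bind laminins. On the inner side, talins and kindlins bind the beta tail and activate the receptor, the ILK, PINCH and parvin complex is recruited, and vinculin, filamins, alpha-actinins and zyxin link the site to actin. Bone-forming cells use these receptors to hold on to the collagen- and fibronectin-rich matrix that they lay down.

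The array medians lay between 6.03 and 6.05. Testing was limited to probe sets whose mean reached 6.07, which is the middle of the table once control probe sets are set aside. The 8 members below this filter are ITGA4, ITGA8, ITGA9, ITGA10, ITGB2, ITGB6, ITGB8 and VCL. The log2 ratio of the 3′ to the 5′ GAPDH control probe set, which rises as RNA degrades, was 0.47 in UWKOS1, 0.40 in UWKOS3 and 0.61 in UWKOS7, and 0.60 in UWKOS2, 0.78 in UWKOS6 and 0.90 in UWKOS8. The matching beta-actin ratio was highest in UWKOS6 (1.35) and UWKOS8 (0.97) and lay between 0.10 and 0.44 in the other lines. The GAPDH ratio was thus mostly higher in the non-tumorigenic lines, with UWKOS7 just above UWKOS2. A second GAPDH pair gave ratios of 1.21 in UWKOS6, 1.98 in UWKOS8 and 0.86 to 1.07 in the other lines. A second beta-actin pair gave 2.855 in UWKOS6, 2.07 in UWKOS8 and 0.64 to 1.11 in the other lines. The GAPDH covariate used below is the first pair. Of 9 measured osteoblast markers, COL1A1, COL1A2, SPARC, BGLAP and RUNX2 passed the filter. ALPL, IBSP, SPP1 and DMP1 did not. The summed osteoblast level on the log2 scale was 14.37 to 15.19 in the tumorigenic and 15.39 to 15.61 in the non-tumorigenic lines. COL1A2 (-0.93) and SPARC (-0.88) were lower in each tumorigenic line, and 0 of the 5 tested markers passed. The groups overlapped for COL1A1 (-0.55), BGLAP (-0.44) and RUNX2 (0.22). Below the filter, IBSP (0.43) was higher in each tumorigenic line, while ALPL and DMP1 overlapped. The part of these markers in the adhesion gene differences was not tested. SPP1, an integrin ligand of bone also called osteopontin, stood at 9.76 in UWKOS1 and between 2.79 and 3.30 in the other 5 lines.

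Lower values in the tumorigenic lines predominated among the alpha chains and adaptors, but few members passed the test. Of the 37 members 29 passed the filter, and among these ITGA5 and ZYX fell, 0 rose and 27 did not pass (limma, Benjamini-Hochberg adjusted p under 0.05). The 2 that fell are 6.90% of the tested members, beside 4.52% of all 9145 tested genes called lower, 7.30% called higher and 11.8% called in either direction. Without the filter the same 2 of 37 passed, beside 5.91% of all 15115 genes, and limma adjusted p of the 8 dim members ran from 0.151 to 0.996. All 3 tumorigenic lines lay below all 3 non-tumorigenic lines in 13 of the 29 (44.8%), compared with 16.6% of all tested genes. They lay above in 2 of 29 (6.90%), compared with 21.7%. Over all members of a class, whether tested or not, the median difference was -0.38 for alpha chains, 0.20 for beta chains and -0.55 for adaptors, next to -0.03 over all 15115 genes. Negative differences were found in 9 of 12 alpha chains, 3 of 8 beta chains and 12 of 17 adaptors. The share over all 15115 genes was 53.15%. Among tested members alone they were found in 6 of 8, 2 of 5 and 12 of 16, compared with 47.4% of all tested genes. The tested beta chains concerned were ITGB1 (-0.94) and ITGB5 (-1.50). Over tested members the class medians were -0.84, 0.20 and -0.57 in the same order, next to 0.03 over all tested genes. The differences between the 3 classes were not tested.

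**Figure D1:**
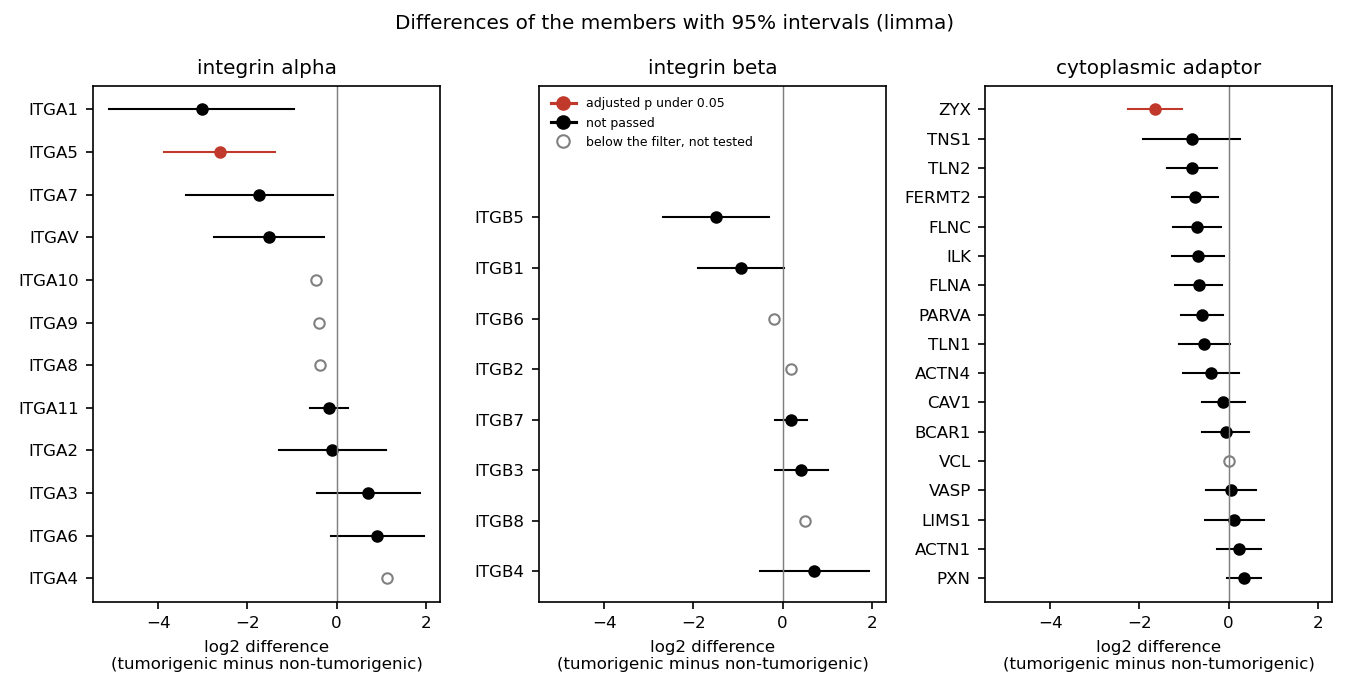
Log2 difference (tumorigenic minus non-tumorigenic, x axis) of each alpha chain, beta chain and adaptor. Bars are 95% limma intervals, red marks an adjusted p under 0.05, and open circles are the 8 members below the filter. ITGA5 (-2.62) and ZYX (-1.66) are the red points, while the interval of ITGA1 is the widest, from -5.10 to -0.94.

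The fibronectin receptor chain ITGA5 fell in the tumorigenic lines. Its log2 values were 9.74 in UWKOS1, 8.42 in UWKOS3 and 10.40 in UWKOS7, and 12.57 in UWKOS2, 12.16 in UWKOS6 and 11.70 in UWKOS8. The groups did not overlap, and UWKOS3 was the lowest line. The means were 9.52 ± 1.01 (SD, n = 3) and 12.14 ± 0.43 (SD, n = 3), a difference of -2.62 with an SE of 0.52, or 6.15-fold (limma adjusted p = 0.0307). A dimmer probe set of the gene gave -1.90, also without overlap, and did not pass (limma adjusted p = 0.0531). ITGA5 stayed past the threshold without UWKOS3 (limma adjusted p = 0.0486) or UWKOS7 (limma adjusted p = 0.0222). It did not pass without UWKOS1 (limma adjusted p = 0.0658), UWKOS2 (limma adjusted p = 0.0731), UWKOS6 (limma adjusted p = 0.113) or UWKOS8 (limma adjusted p = 0.0730). In those 4 fits its difference ranged from -2.84 to -2.41. With the GAPDH ratio as a covariate, where 7 of 21462 probe sets passed in all, the difference was -2.33 (limma adjusted p = 0.4005).

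ITGAV, the alpha chain of the vitronectin receptors, was lower in each tumorigenic line without passing. It read 12.23 in UWKOS1, 10.85 in UWKOS3 and 12.98 in UWKOS7, and 13.58 in UWKOS2, 13.37 in UWKOS6 and 13.65 in UWKOS8. The non-tumorigenic lines spanned 0.28 and the tumorigenic lines 2.13, with UWKOS3 far below the others. The difference was -1.51 (SE 0.51, limma adjusted p = 0.101), and a second tested probe set gave -1.71 (limma adjusted p = 0.0728). ITGAV passed without UWKOS7 (-1.99, limma adjusted p = 0.0385).

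Its partner ITGB5 had the same arrangement, with 11.43 in UWKOS1, 9.44 in UWKOS3, 10.23 in UWKOS7, 11.55 in UWKOS2, 11.89 in UWKOS6 and 12.16 in UWKOS8. UWKOS1 came close to UWKOS2, while UWKOS3 and UWKOS7 lay well below every non-tumorigenic line. The difference was -1.50 (SE 0.49, limma adjusted p = 0.0936), and the gene's other 3 tested probe sets gave -1.23, -1.09 and -0.39 with overlapping groups. Without UWKOS1 it passed (-2.03, limma adjusted p = 0.0407). The common partner ITGB1 read 11.41 in UWKOS1, 10.42 in UWKOS3, 11.82 in UWKOS7, 12.60 in UWKOS2, 12.09 in UWKOS6 and 11.77 in UWKOS8. UWKOS7 lay above UWKOS8, so the groups overlapped. ITGB1 differed by -0.94 (95% interval -1.90 to 0.03, limma adjusted p = 0.167), and its second probe set by -0.10.

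ITGB3, which pairs with ITGAV on osteoclasts and endothelium, had a positive difference. It read 7.38 in UWKOS1, 6.81 in UWKOS3 and 7.08 in UWKOS7, and 7.05 in UWKOS2, 6.32 in UWKOS6 and 6.62 in UWKOS8. The ranges overlapped through UWKOS2, and the difference of 0.42 did not pass (95% interval -0.18 to 1.03, limma adjusted p = 0.296). The summed level of 6 endothelial markers was 8.87 to 9.30 on the log2 scale in the tumorigenic and 8.67 to 8.69 in the non-tumorigenic lines. KDR, a tested marker, differed by 1.11 without overlap (limma adjusted p = 0.0905), and PECAM1, below the filter, by 0.84 without overlap. CDH5, the other tested marker, differed by -0.04 with overlap. Below the filter, TEK differed by -0.25 with every tumorigenic line lower, while VWF (0.05) and ESAM (-0.01) overlapped. The part of endothelial genes in the ITGB3 values was not tested. ITGA8, ITGB6 and ITGB8, further chains of RGD receptors, were below the filter in mean level, and their differences were -0.37, -0.18 and 0.50.

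**Figure D2:**
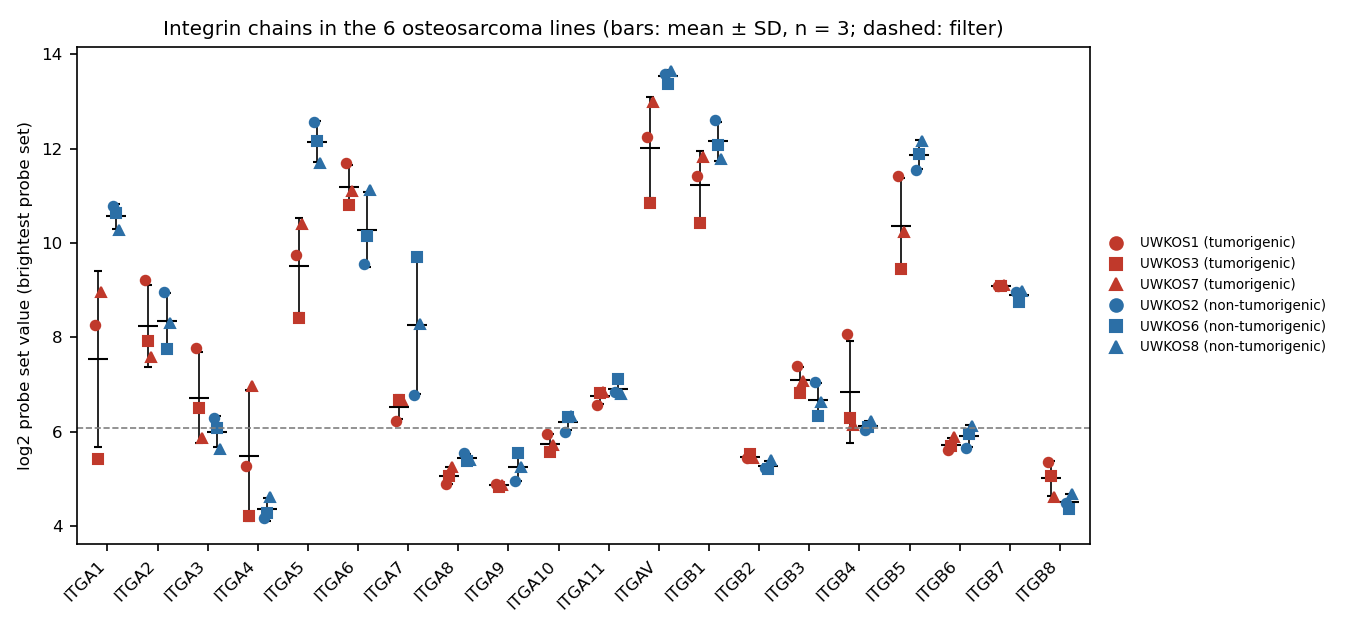
Log2 probe set value (y axis) of each of the 20 integrin chains in the 3 tumorigenic (red) and 3 non-tumorigenic (blue) lines, with black bars for mean ± SD (n = 3) and a dashed line at the filter of 6.07. Levels are comparable between lines for 1 chain, not between chains. ITGA1, ITGA5, ITGAV and ITGB5 show the red points below the blue, with UWKOS3 (red squares) lowest.

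Among the collagen receptors the largest difference of all members was that of ITGA1, a receptor for collagen and laminin on mesenchymal cells. It stood at 8.25 in UWKOS1, 5.42 in UWKOS3 and 8.95 in UWKOS7, and at 10.78 in UWKOS2, 10.63 in UWKOS6 and 10.28 in UWKOS8. UWKOS3 fell under the filter value, and every tumorigenic line lay below every non-tumorigenic line. The means were 7.54 ± 1.87 (SD, n = 3) and 10.56 ± 0.26 (SD, n = 3), and the difference of -3.02 (SE 0.87) did not pass (limma adjusted p = 0.0683). It passed without UWKOS3, at -1.96 (limma adjusted p = 0.0451), and without UWKOS7, at -3.73 (limma adjusted p = 0.0403).

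ITGA2, the other well known collagen receptor chain, was not separated by tumorigenicity. It read 9.22 in UWKOS1, 7.93 in UWKOS3, 7.57 in UWKOS7, 8.96 in UWKOS2, 7.75 in UWKOS6 and 8.30 in UWKOS8. The highest value belonged to a tumorigenic and the next to a non-tumorigenic line, and the difference was -0.09 (95% interval -1.29 to 1.10). Its second tested probe set gave 0.04. ITGA11, a fibrillar collagen receptor of fibroblasts and bone cells, differed by -0.17 (95% interval -0.59 to 0.25). Below the filter, its probe set ranked 2 by brightness gave -0.39 and the one ranked 3 gave -1.18, both without overlap. The latter read 3.97 to 4.02 in the tumorigenic and 4.85 to 5.36 in the non-tumorigenic lines. It passed in the fit without the filter (limma adjusted p = 0.0251), as did 5.05% of all probe sets. ITGA10, the cartilage-associated chain, had a mean just under the filter and differed by -0.47 without overlap.

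Of the 4 laminin receptor chains 3 had a positive difference and ITGA7 a negative one, and 0 passed on the brightest probe set. ITGA6 read 11.68 in UWKOS1, 10.80 in UWKOS3 and 11.10 in UWKOS7, and 9.55 in UWKOS2, 10.15 in UWKOS6 and 11.13 in UWKOS8. UWKOS8 lay within the tumorigenic range and UWKOS2 lowest. On this brightest probe set the difference was 0.92 (SE 0.44, limma adjusted p = 0.203). On the next probe set by brightness it was 1.43 without overlap (limma adjusted p = 0.0898), and on the one ranked 3 it was 1.85, which passed (limma adjusted p = 0.0474), as did 12.0% of all tested probe sets. On that probe set the tumorigenic lines read 9.89, 8.44 and 8.76 and the non-tumorigenic lines 6.85, 6.88 and 7.83, in the order UWKOS1, UWKOS3, UWKOS7 and UWKOS2, UWKOS6, UWKOS8. The dimmest tested one gave -0.34, so the probe sets of ITGA6 disagreed in sign.

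ITGB4, the partner of ITGA6 in hemidesmosomes of epithelia, read 8.08 in UWKOS1 and lay between 6.03 and 6.29 in the other 5 lines. Its difference of 0.71 (95% interval -0.51 to 1.94) thus rested on UWKOS1, and the second probe set, at 6.65 in UWKOS1 and 6.04 to 6.40 elsewhere, gave -0.02. ITGA3, a laminin receptor chain of epithelia and mesenchyme, was also highest in UWKOS1, at 7.78, followed by 6.51 in UWKOS3, with 5.63 to 6.29 in the other 4 lines. Its difference was 0.72 (95% interval -0.45 to 1.88). UWKOS1 was likewise highest for ITGA2, ITGA6 and ITGB3. Of 5 measured epithelial markers, 0 reached the filter in mean level. Their summed level on the log2 scale ranged from 6.62 to 8.97 in the tumorigenic and from 6.48 to 6.82 in the non-tumorigenic lines. EPCAM stood at 7.64 in UWKOS1 and between 3.458 and 4.001 in the other lines. KRT8 stood at 6.49 in UWKOS1, 6.64 in UWKOS3 and 2.69 to 3.04 elsewhere. KRT18 stood at 7.44 in UWKOS1, 6.41 in UWKOS3 and 5.065 to 5.724 elsewhere. CDH1, between 3.95 and 4.26, and CLDN4, between 4.16 and 4.45, were nearly level across all 6 lines. The part of epithelial genes in the ITGA3 and ITGB4 values of UWKOS1 was not tested.

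ITGA7, the laminin receptor chain of muscle, read 6.23 in UWKOS1, 6.66 in UWKOS3, 6.67 in UWKOS7 and 6.78 in UWKOS2, but 9.70 in UWKOS6 and 8.29 in UWKOS8. The non-tumorigenic line UWKOS2 was thus close to the tumorigenic lines, and the difference of -1.74 (SE 0.69) did not pass (limma adjusted p = 0.140). Without UWKOS2 it was -2.47 and passed (limma adjusted p = 0.0449). UWKOS6 and UWKOS8 are also the lines with the highest transcript-end ratios, and with the GAPDH ratio as a covariate the difference was -0.63 (limma adjusted p = 0.895). The probe set ranked 3 by brightness also set these lines apart, with 8.40 in UWKOS6 and 7.25 in UWKOS8 against 5.72 to 6.41 elsewhere. The remaining 2 tested probe sets of ITGA7 were flat, with differences of -0.03 and -0.04.

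Receptor chains known from leukocytes, and the tenascin receptor chain ITGA9, were mostly dim. ITGB2, the common beta chain of leukocyte integrins, lay between 5.20 and 5.52 in all 6 lines, ITGA9 between 4.83 and 5.55, and both were below the filter. ITGA4, which pairs with ITGB1 or ITGB7, was at 6.97 in UWKOS7, 5.27 in UWKOS1 and 4.17 to 4.62 in the other lines. ITGB7 ran from 8.75 to 9.11 on its brightest probe set, with a difference of 0.20 (95% interval -0.16 to 0.56). A second probe set of ITGB7 read 8.63 in UWKOS1 and 9.07 in UWKOS3 and between 7.18 and 7.61 in the other lines, a difference of 1.00 (limma adjusted p = 0.149). The summed level of 8 leukocyte markers ranged from 8.90 to 9.29 in the tumorigenic and from 9.05 to 9.18 in the non-tumorigenic lines. Differences were negative for 4 markers and positive for 4. LAPTM5, a tested marker, differed by -0.34 with every tumorigenic line lower (limma adjusted p = 0.214). CD14, the other tested marker, differed by 0.04 with overlap. Below the filter, CORO1A stood at 7.225 in UWKOS7, 5.81 in UWKOS1 and 5.89 in UWKOS3, with a mean of 5.69 in the non-tumorigenic lines. PTPRC lay between 4.86 and 5.17 in all lines. The part of leukocyte genes in the ITGA4 value of UWKOS7 was not tested.

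The alpha chains were further set against ITGB1 within each array, as a description of the balance between partners. ITGA5 minus ITGB1 was -1.66 in UWKOS1, -2.00 in UWKOS3 and -1.43 in UWKOS7, and -0.04, 0.07 and -0.07 in UWKOS2, UWKOS6 and UWKOS8. The groups were far apart on this scale, by -1.69, so ITGA5 was lower by more than its partner. This rests on the brightest ITGB1 probe set, which differed by -0.94, while the second differed by -0.10. The shift was not particular to ITGA5. ITGA1 minus ITGB1 shifted further, by -2.09, also without overlap. ITGA7 minus ITGB1 shifted by -0.8 and ITGAV minus ITGB1 by -0.57, both with overlap. ITGA6 minus ITGB1 went in the opposite direction, averaging -0.03 ± 0.61 (SD, n = 3) in tumorigenic lines against -1.88 ± 1.20 (SD, n = 3) otherwise. There UWKOS8, at -0.65, lay above UWKOS7, at -0.72. ITGA3 minus ITGB1 averaged -4.50 ± 1.26 (SD, n = 3) and -6.15 ± 0.15 (SD, n = 3). ITGA2 minus ITGB1 shifted by 0.84 with overlap. ITGAV minus ITGB5 differed by -0.005 between the groups, while single lines ran from 0.81 in UWKOS1 to 2.75 in UWKOS7. Zero on these scales has no meaning across probe sets. Only shifts between lines can be read.

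Among the adaptors ZYX, the LIM protein zyxin that marks mature, tension-bearing adhesions, fell. It read 8.71 in UWKOS1, 8.64 in UWKOS3 and 8.79 in UWKOS7, and 9.85 in UWKOS2, 10.70 in UWKOS6 and 10.56 in UWKOS8. The tumorigenic lines were nearly equal, and the gap to the lowest non-tumorigenic line was larger than the spread within either group. The means were 8.72 ± 0.07 (SD, n = 3) and 10.37 ± 0.46 (SD, n = 3), a difference of -1.66 with an SE of 0.25, or 3.16-fold (limma adjusted p = 0.0199). ZYX has 1 probe set here. It stayed past the threshold without UWKOS1, UWKOS2 or UWKOS7, and did not pass without UWKOS3 (-1.62, limma adjusted p = 0.0547), UWKOS6 (-1.49, limma adjusted p = 0.0837) or UWKOS8 (-1.56, limma adjusted p = 0.0633). With the GAPDH ratio as a covariate the difference was -1.14 (limma adjusted p = 0.315).

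In the ILK, PINCH, parvin and kindlin group 3 of 4 members lay lower in every tumorigenic line, an arrangement seen in 16.6% of all tested genes, and 0 passed. FERMT2, the kindlin of mesenchymal cells that binds the integrin beta tail, read 11.22 in UWKOS1, 11.74 in UWKOS3 and 11.75 in UWKOS7, and 12.07 in UWKOS2, 12.46 in UWKOS6 and 12.44 in UWKOS8. UWKOS1 was the lowest line, and the tumorigenic lines spanned 0.53. The difference was -0.75 (SE 0.22, limma adjusted p = 0.0705). ILK, the pseudokinase scaffold, read 10.08 in UWKOS1, 9.64 in UWKOS3, 10.24 in UWKOS7, 10.66 in UWKOS2, 10.99 in UWKOS6 and 10.37 in UWKOS8. Its difference was -0.68 (limma adjusted p = 0.111), while its other 2 tested probe sets gave -0.28 and 0.11 with overlap. PARVA, which joins ILK to actin, differed by -0.59 (limma adjusted p = 0.0968) without overlap. LIMS1, the PINCH adaptor, differed by 0.13 with overlap (95% interval -0.54 to 0.79), and by 0.53 without overlap on its second probe set (limma adjusted p = 0.194).

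Among the talins, vinculin, tensin, filamins and alpha-actinins 0 passed, and TLN2 had the smallest p. This talin read 6.87 in UWKOS1, 7.10 in UWKOS3 and 7.06 in UWKOS7, and 7.53 in UWKOS2, 8.27 in UWKOS6 and 7.70 in UWKOS8. The groups did not overlap, UWKOS6 was highest, and the difference was -0.82 (SE 0.23, limma adjusted p = 0.0647). TLN1, the ubiquitous talin, read 10.11 in UWKOS1, 9.75 in UWKOS3, 10.25 in UWKOS7, 10.46 in UWKOS2, 10.97 in UWKOS6 and 10.32 in UWKOS8. UWKOS7 and UWKOS8 were nearly equal, and the difference was -0.55 (limma adjusted p = 0.172). Its other tested probe sets gave -0.09 and 0.21.

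The filamins crosslink actin and bind integrin tails. FLNC, the muscle filamin, read 9.18 in UWKOS1, 8.71 in UWKOS3, 9.45 in UWKOS7, 9.92 in UWKOS2, 9.77 in UWKOS6 and 9.79 in UWKOS8. It differed by -0.71 without overlap (limma adjusted p = 0.0815), while its other 2 tested probe sets gave -0.31 and 0.25. FLNC passed without UWKOS7 (-0.88, limma adjusted p = 0.0475). FLNA, the general filamin, differed by -0.67, -0.58 and -0.63 on its 3 tested probe sets, the first without overlap (limma adjusted p = 0.0911), and also passed without UWKOS7 (-0.85, limma adjusted p = 0.0462).

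For the actin crosslinker ACTN1 the probe sets disagreed. The brightest read 10.40 in UWKOS1, 10.37 in UWKOS3, 10.55 in UWKOS7, 10.39 in UWKOS2, 9.84 in UWKOS6 and 10.39 in UWKOS8, which is level apart from UWKOS6. It gave 0.23 (95% interval -0.26 to 0.72). The dimmest tested one read 6.48 in UWKOS1, 6.15 in UWKOS3 and 8.86 in UWKOS7, and 8.95, 9.31 and 8.20 in UWKOS2, UWKOS6 and UWKOS8. That pattern sets UWKOS1 and UWKOS3 apart from the other 4 lines, and its difference of -1.66 did not pass (limma adjusted p = 0.176). ACTN4 differed by -0.39 (95% interval -1.02 to 0.24) and the tensin TNS1 by -0.83 (95% interval -1.91 to 0.25) and, on its second tested probe set, by -1.08 without overlap (limma adjusted p = 0.0825). Vinculin, VCL, lay just under the filter, at 5.56 to 6.26, and differed by 0.002.

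**Figure D3:**
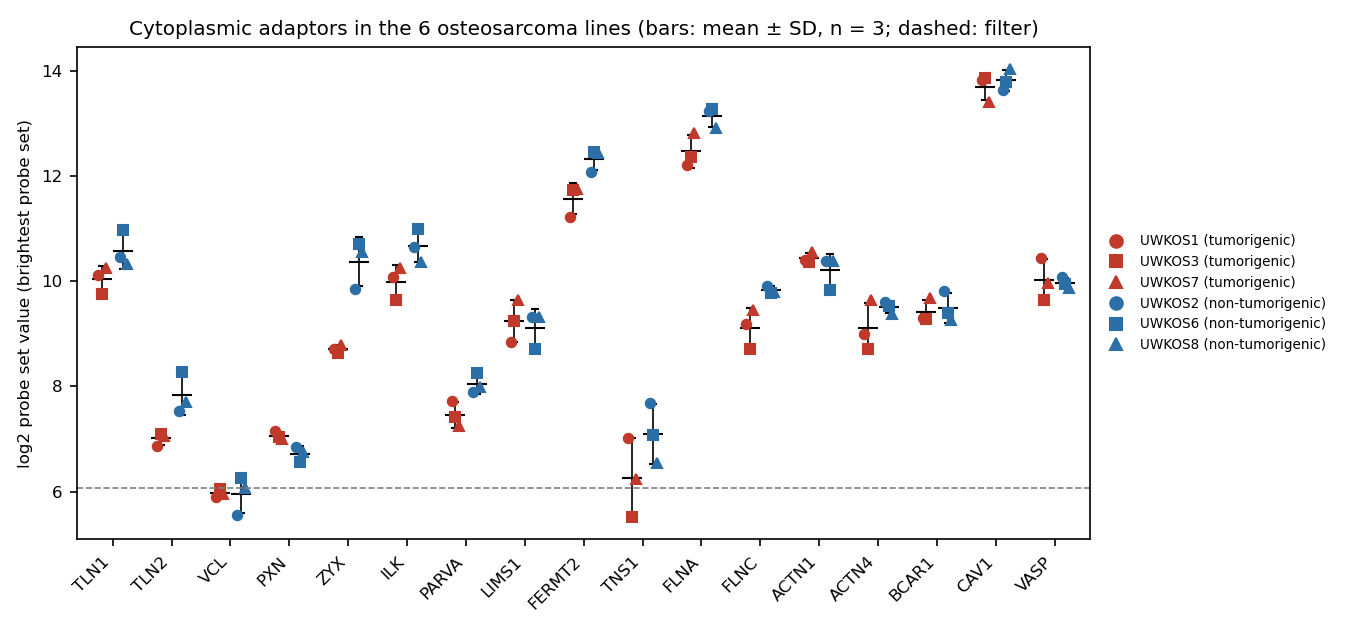
Log2 probe set value (y axis) of each of the 17 cytoplasmic adaptors in the 3 tumorigenic (red) and 3 non-tumorigenic (blue) lines, with black bars for mean ± SD (n = 3) and a dashed line at the filter of 6.07. ZYX shows the widest gap between the groups, while CAV1, BCAR1, VASP and LIMS1 overlap.

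Docking and signalling adaptors showed small differences. PXN, the scaffold paxillin, was 1 of the 2 tested members whose tumorigenic values all lay above, ITGB7 being the other, and it differed by 0.34 (95% interval -0.04 to 0.72, limma adjusted p = 0.193). BCAR1, the stretch-sensitive docking protein p130Cas, read 9.29 in UWKOS1, 9.28 in UWKOS3, 9.69 in UWKOS7, 9.81 in UWKOS2, 9.40 in UWKOS6 and 9.25 in UWKOS8. The groups overlapped throughout, and its 3 tested probe sets gave -0.07, 0.19 and 0.13. CAV1, the coat protein of caveolae, read 13.82 in UWKOS1, 13.86 in UWKOS3, 13.40 in UWKOS7, 13.65 in UWKOS2, 13.78 in UWKOS6 and 14.03 in UWKOS8. UWKOS7 was the low line on all 3 of its probe sets, whose differences were -0.12, -0.28 and 0.10. VASP, an actin elongation factor at adhesions, differed by 0.06 (95% interval -0.51 to 0.62).

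**Figure D4:**
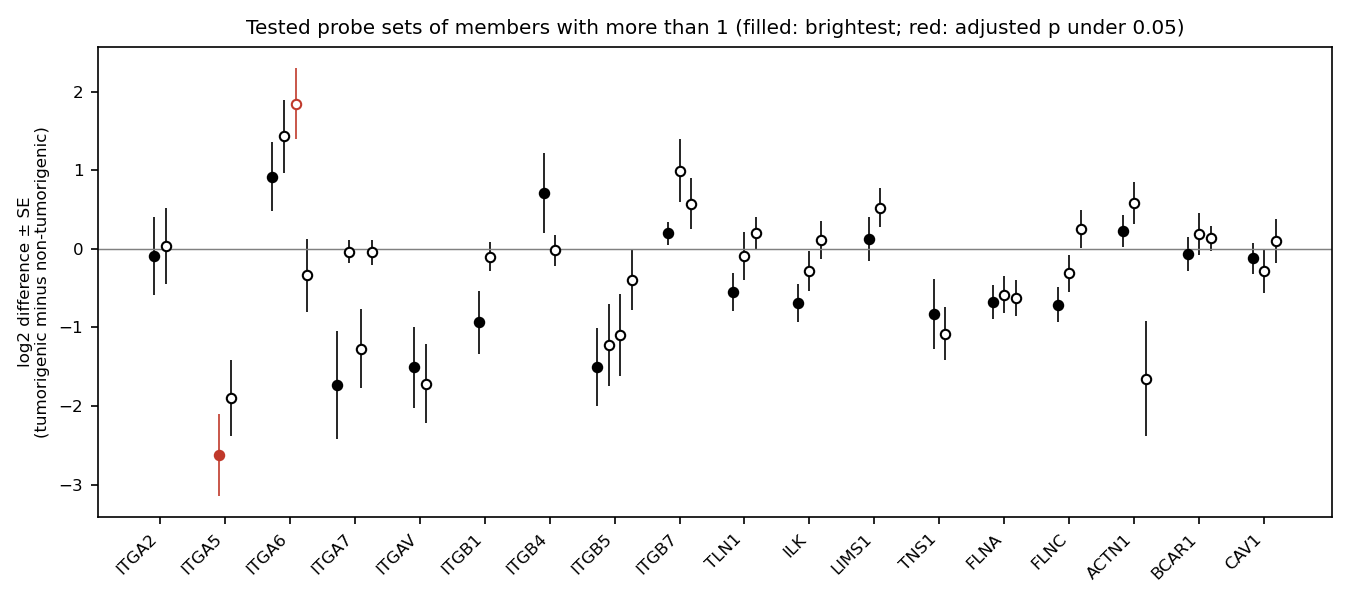
Log2 difference ± SE (tumorigenic minus non-tumorigenic, y axis) of every tested probe set of the 18 members with more than 1, ordered by brightness within a gene. Filled points are the brightest probe sets and red marks an adjusted p under 0.05. ITGAV, ITGB5 and FLNA repeat their sign on each probe set, whereas ITGA6 runs from 1.85 to -0.34 and ACTN1 from 0.59 to -1.66.

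With the GAPDH ratio as a covariate 0 members passed, and several differences moved by more than 1.5 times. Closer to 0 were ITGA1 at -1.94, ITGAV at -0.62, ITGB5 at -0.97, ITGB3 at 0.20, FERMT2 at -0.46 and ACTN4 at -0.11. Farther from 0 were ITGA2 at -0.85, ITGA6 at 1.88, TNS1 at -1.32, BCAR1 at -0.22 and LIMS1 at 0.30. ITGA3 turned from 0.72 to -0.09. VASP went from 0.06 to 0.007. The limma adjusted p of the members in that fit ran from 0.315 for ZYX to 0.997 for VASP.

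The members did not vary evenly across the lines. UWKOS3 was the lowest line in 12 of the 29 tested members (41.4%), 5 of 13 integrins and 7 of 16 adaptors, compared with 17.0% of all tested genes. The share of all tested genes with their lowest value in a given line was 22.9% for UWKOS1, 11.5% for UWKOS2, 19.3% for UWKOS6, 13.7% for UWKOS7 and 15.6% for UWKOS8, and among the members it was 5, 2, 5, 3 and 2 of 29. UWKOS3 was the highest line in 0 members, compared with 20.6% of all tested genes. UWKOS6 was the highest line in 9 of 29, compared with 15.7% of all tested genes. These shares are descriptions, since the members were not tested as a set. The tested integrins spread by a median of 1.65 among the tumorigenic lines and 0.66 among the non-tumorigenic lines. For the adaptors the corresponding ranges were 0.52 and 0.47, and over all tested genes 0.57 and 0.40. ITGA1 (3.53), ITGAV (2.13), ITGB5 (1.99), ITGA5 (1.98), ITGB4 (1.94) and ITGA3 (1.90) had the widest tumorigenic ranges among the tested members. Leaving out UWKOS3 changed the median difference from -0.55 to -0.40 for the adaptors and from -0.38 to -0.37 for the alpha chains. With all lines that alpha median lies between ITGA8 (-0.37) and ITGA9 (-0.38), both below the filter. Over the 8 tested alpha chains the median with all lines was -0.84. The small change thus says little about the brighter chains, and ITGA1 moved by more without UWKOS3, as given above.

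**Figure D5:**
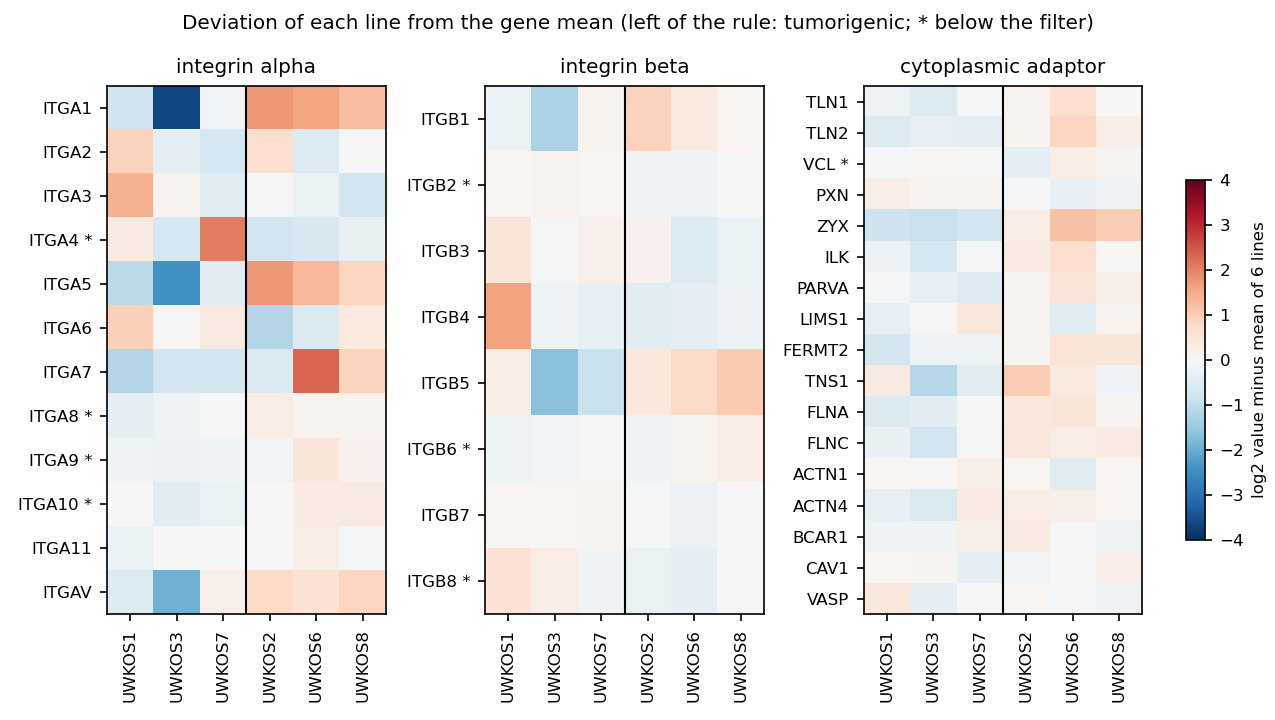
Deviation of each line from the gene's own mean over the 6 lines (colour, log2 scale) for the alpha chains, beta chains and adaptors; rows marked with a star are below the filter. UWKOS3 is the darkest blue column for ITGA1, ITGA5, ITGAV, ITGB1 and ITGB5, and UWKOS1 is red for ITGA3 and ITGB4.

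Some smooth muscle markers differed between the groups. The summed level of the 6 measured markers was 9.94 to 14.50 on the log2 scale in the tumorigenic lines and 15.34 to 15.40 in the non-tumorigenic lines. ACTA2, the smooth muscle actin of contractile mesenchymal cells, stood at 11.44 in UWKOS1, 3.83 in UWKOS3 and 12.72 in UWKOS7, and between 14.21 and 14.30 in the non-tumorigenic lines. TAGLN had the same order, with 11.48, 9.51 and 13.59 in UWKOS1, UWKOS3 and UWKOS7 and 14.30 to 14.45 in the non-tumorigenic lines. The other tested markers overlapped. CNN1 was highest in the tumorigenic line UWKOS7, at 11.94, with 9.93 to 10.62 in the non-tumorigenic lines, and DES differed by 0.40. MYH11 and LMOD1, markers of differentiated smooth muscle, were below the filter, and 0 of the 4 tested markers passed. The line order UWKOS3, UWKOS1, UWKOS7 is also that of ITGA1, ITGA5, ITGAV and ITGB1 among the tumorigenic lines. ITGB5 ran UWKOS3, UWKOS7, UWKOS1 instead, and ITGA7 did not follow that order either. Among the adaptors ZYX, TLN1, ILK and FLNC followed it, while FERMT2, TLN2, FLNA and PARVA did not. How many of all genes follow it was not counted. The part of contractile genes in the integrin and adaptor differences was not tested.

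Other genes of adhesion sites held some lower members. Of 55 listed genes 46 were measured and 35 tested. The test called 3 of them lower, 0 higher and 32 neither, while 4.52% of all tested genes were called lower and 7.30% higher. Over the 46 the median was -0.13. NEXN, an actin-binding protein of adhesions, fell by 3.02 (SE 0.50, limma adjusted p = 0.0229), from 9.87 to 10.90 in the non-tumorigenic lines to 6.26 in UWKOS1, 7.86 in UWKOS3 and 7.90 in UWKOS7. TNS2, a tensin, fell by 0.99 (limma adjusted p = 0.0421) and TGFB1I1, the paxillin homologue Hic-5, by 1.21 (limma adjusted p = 0.0428). SVIL and CSRP1 came next and did not pass, with differences of -1.26 (limma adjusted p = 0.0502) and -2.36 (limma adjusted p = 0.0587). The focal adhesion kinase PTK2 differed by 0.61 with overlap (limma adjusted p = 0.190). Every tumorigenic line lay higher for TRIP6 (0.83, limma adjusted p = 0.0595) and PAK2 (0.85, limma adjusted p = 0.0670), which did not pass. Differences were negative in 23 of the 35 and positive in 12. All tumorigenic lines lay below in 9 and above in 3, compared with 16.6% and 21.7% of all tested genes. With the GAPDH ratio as a covariate TGFB1I1 differed by -0.68, NEXN by -3.04, TNS2 by -1.15 and CSRP1 by -3.90, and 0 of the 35 passed. Of the 35, 0 fell without UWKOS2, UWKOS3, UWKOS6 or UWKOS8, and 1 without UWKOS1. Over all tested probe sets 6.26%, 2.55%, 0.238%, 1.96% and 4.99% passed in those fits, in that order, next to 12.0% in the main fit. When each array was centred on its hybridization controls, 2 rose and 1 fell, while 15.4% of all tested probe sets passed. That centring moved the median difference of all genes from -0.03 to 0.14.

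Ligands of the integrins were lower as well. Of 36 listed 34 were measured and 27 tested, of which 7 fell, 0 rose and 20 did not pass, while 4.52% of all tested genes were called lower. The median difference was -1.02 over the 34. Negative differences were found in 31 of the 34, compared with 53.15% of all 15115 genes. All 27 tested ligands were negative, compared with 47.4% of all tested genes, but the filter bears on that count. SPP1 (2.255), NPNT (1.81) and IBSP (0.43), the 3 with a positive difference, were below it. CCN3, POSTN and TNC, with tumorigenic means of 5.68, 5.165 and 5.66, reached it only through the non-tumorigenic lines. LAMB2, a laminin chain, fell by 2.20 (SE 0.25, limma adjusted p = 0.0124), with 7.94, 8.33 and 8.81 in the tumorigenic and 10.51 to 10.66 in the non-tumorigenic lines. MFGE8, an RGD protein bound by ITGAV receptors, fell by 1.52 (limma adjusted p = 0.0208). COL4A2 (-1.57), THBS2 (-6.24) and CCN3 (-5.41) followed, and THBS1 and COL4A1 were the other members that fell. FN1, the ligand of ITGA5, read 12.59 in UWKOS1, 10.12 in UWKOS3 and 11.46 in UWKOS7 and 13.14 to 13.55 in the non-tumorigenic lines. Its groups did not overlap, but the difference of -1.92 did not pass (limma adjusted p = 0.0790). FN1, THBS1, COL4A1, POSTN, TNC, NPNT, PTK2, TRIP6, PAK2, SPP1 and, as a ligand, IBSP were named after their values were seen. With the GAPDH ratio as a covariate 0 ligands passed, and the differences were -1.93 for LAMB2, -1.34 for MFGE8, -1.04 for COL4A2, -4.83 for THBS2 and -6.91 for CCN3. The count of ligands that fell was 0 without UWKOS6, 1 without UWKOS8, 4 without UWKOS2 or UWKOS3, 8 without UWKOS1 and 12 without UWKOS7. The share of all tested probe sets that passed in either direction was 0.238% without UWKOS6, 1.96% without UWKOS8 and 6.26% without UWKOS2. That share was 2.55% without UWKOS3, 4.99% without UWKOS1 and 14.6% without UWKOS7, next to 12.0% in the main fit.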

How the data were processed

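Total RNA of each of the 6 lines was labelled and measured once on a canine Affymetrix array. The submitters' processing notes name MAS5 and no further tool; its version, the build and annotation are not given in the sources used here. The deposited values are on a log2 scale with nearly equal quantiles across arrays (array medians of 6.03 to 6.05), and were used as deposited; their exact summary method and scaling stay unknown, and 0 columns were left out. Precision is limited by having 3 arrays a group.

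Of 42924 non-control probe sets, 29254 were paired with a single gene symbol by GEO's (possibly outdated) annotation of the array; 27680 were updated through gene identifiers to RefSeq assembly UU_Cfam_GSD_1.0 names. limma 3.58.1 (R 4.3.3; lmFit, eBayes, no covariate) was fitted to the 21462 probe sets with a mean at or above the median, with Benjamini-Hochberg adjustment over all of them. The fit was tested on simulated data. Class medians and line shares carry no test. The members and the other gene lists were chosen with earlier results of these data known, and the line shares, chain balances and functional subgroups were added after the data were seen. Values in every line are given for members past the threshold on any probe set, members whose probe sets disagree in sign or by over 1.5 (limited to tested probe sets once the data were seen), and the 3 of smallest p per class among the rest; other lists name up to 5 genes by smallest p. Replicate numbers follow accession order and pair nothing. Figures were drawn with matplotlib 3.10.9.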

Additional observations from a re-analysis of the deposited data

How the results depend on the processing

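The signs of the ITGA5 and ZYX differences held under all 18 alternatives, from -3.06 to -2.07 for ITGA5 and from -1.92 to -1.13 for ZYX. They stayed past the threshold in 12 and 13 of the 18, with limma adjusted p ranging from 0.0185 to 0.4005 for ITGA5 and from 0.0131 to 0.330 for ZYX. Members that fell numbered 7 with array weights, where ITGA1, ITGAV, ITGB5, FERMT2 and FLNC joined while the share of all tested probe sets that passed went from 12.0% to 18.1%, and 0 with the GAPDH ratio as a covariate or without both UWKOS6 and UWKOS8, where 7 and 0 of 21462 probe sets passed in all and UWKOS2, alone in its group in the second fit, was taken to have the spread of the tumorigenic group. Leaving out 1 line gave 0 to 6 members lower, 0 without UWKOS6 or UWKOS8 and 6 without UWKOS7. Of 21462 probe sets 51 passed in all without UWKOS6, 421 without UWKOS8 and 3130 without UWKOS7, next to 2580 in the main fit. Other adhesion site genes that fell numbered 1 with no filter, 5 with centring on the 75th percentile, 1 with centring on the hybridization controls, 5 with array weights, 5 with each gene's probe sets averaged and 0 in the covariate fit and without both lines; those that rose numbered 2 with the hybridization controls, 1 with array weights and 1 with the mean of probe sets. With 1 line left out they ranged from 0 to 4 lower and from 0 to 1 higher. Ligands that fell numbered 12 with array weights, 0 with the covariate and 0 without both lines, and 0 to 12 with 1 line left out. The median of the adaptors was -0.28 with each gene's probe sets averaged. The causes were not tested. Class medians kept their sign in every alternative that could move them. No paired analysis was possible because the labels give the lines no shared replicate numbers.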
